A study of Mus musculus with 9 samples.

Results

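The genes described here are markers and effectors of macrophages, followed in stroma microdissected from mouse prostates. The 10 genes chosen were Lyz2, Ms4a6d, Fcgr3, Stab1, Laptm5, Csf1r, C1qb, Tyrobp, Cd68 and Dab2, and an array row was taken for a gene where the platform annotation gave its symbol. Of these, 6 had a row of their own (Lyz2, Ms4a6d, Fcgr3, Stab1, Laptm5 and Dab2) among 8106 genes tested in all. C1qb was found only on 2 rows whose annotation also names C1qa and C1qc, called C1q rows here, since the chain that each clone detects is not settled by the annotation. Csf1r, Tyrobp and Cd68 were not named on any row used here and were not analysed. The 6 genes lie on 10 of the 17664 rows, and 9 of these held values, because 1 Dab2 row was empty.

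All mice were FVB males hemizygous for CR2-TAg, a transgene in which cryptidin-2 regulatory elements direct SV40 large T antigen to neuroendocrine cells of the prostate. The tested stroma came from invasive cancer at 24 weeks of age (6 mice, 1 array each), and it was set against stroma around prostatic intraepithelial neoplasia (PIN), the preinvasive stage, at 10 weeks of age (3 mice, 1 array each, replicates 2, 3 and 4). The PIN array of the remaining mouse of the study was not analysed here. Age and stage changed together, and their parts in a difference cannot be told apart. Each value is a log2 ratio of the sample, in the Cy5 channel, over a pool of the PIN samples, in the Cy3 channel, so that 0 means the level of the pool and 1 a doubling. The dyes were not swapped, and each PIN sample was also part of the pool.

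Macrophages derive from embryonic precursors or from blood monocytes, and in most tissues they depend on the receptor encoded by Csf1r. They take up particles through Fc receptors, complement and scavenger receptors, digest them in lysosomes, and signal from activating receptors through adaptors that carry an immunoreceptor tyrosine-based activation motif (ITAM), such as Tyrobp and Fcer1g. In tumors they gather in the stroma, where they are a known source of proteases, growth factors and complement. In bulk stroma, more cells of a type and more RNA per cell cannot be told apart.

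Because PU.1, the transcription factor of the myeloid lineage, binds many macrophage promoters at a GAGGAA core, the upstream sequences of the genes are shown first. The reference windows of 300 bases around an annotated transcript start were those of RefSeq (GRCm38.p6), and 7 genes were matched, C1qc included, over 9 windows, while Ms4a6d and C1qa were not matched. Capitals mark GAGGAA or its complement TTCCTC, the 150-base stretches end at the base before the start, and the 30-base stretches lie close upstream of it.
Lyz2, chr10:117282273-117282422, minus strand: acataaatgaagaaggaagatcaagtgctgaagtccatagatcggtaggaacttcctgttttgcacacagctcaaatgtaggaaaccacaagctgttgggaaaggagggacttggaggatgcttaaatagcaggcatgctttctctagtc
C1qb, chr4:136886201-136886350, minus strand: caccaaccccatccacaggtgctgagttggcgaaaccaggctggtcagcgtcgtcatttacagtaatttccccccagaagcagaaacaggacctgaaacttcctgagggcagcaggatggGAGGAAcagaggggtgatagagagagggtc
Fcgr3, chr1:171059404-171059433, minus strand: ggttaagcaagagagtccatttccTTCCTC
Stab1, chr14:31168654-31168683, minus strand: gctgatacgcagGAGGAAatcctggtgggt
Laptm5, chr4:130913266-130913295, plus strand: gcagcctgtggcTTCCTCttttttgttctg
GAGGAA was present on either strand in 6 of the 7 genes (Fcgr3, Stab1, Laptm5, Dab2, C1qb and C1qc), and 28.3% of all 32851 windows of 300 bases held it. A gene was counted if any of its windows matched, and by window 8 of the 9 held GAGGAA. The Lyz2 window had none. The C/EBP pattern TTNNGNAA, searched on both strands, was present for Lyz2, Fcgr3, Dab2 and C1qc, 4 of the 7 genes and 5 of the 9 windows, against 40.7% of all windows. The AP-1 pattern TGANTCA, also searched on both strands, was found in 0 of the 7 genes, against 7.81% of all windows. TATAAA on the coding strand was found for Laptm5 alone among the 7, against 8.32% of all windows. These matches describe letters in the windows, and no occupancy was measured.

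All 6 genes were higher in invasive cancer stroma, by 2.79-fold for Laptm5 to 9.23-fold for Lyz2, and each had an adjusted p below 0.15, the limit that the study set on false discoveries (limma, Benjamini-Hochberg over all genes). Over all genes, 3.75% passed as higher. At an adjusted p under 0.05, 4 of the 6 passed, against 0.703% of all genes. In all 6 genes the invasive arrays lay above the PIN arrays without overlap, which was the case in 4.86% of all genes. Over all genes tested the median difference was 0.02 on the log2 scale. The genes had been chosen with results of these arrays known, so the counts describe them and are no independent evidence of direction.

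Lyz2 encodes lysozyme M, the bacteriolytic enzyme that macrophages and granulocytes store and secrete, and the clone could also capture RNA of its near-identical neighbor Lyz1, which was not tested. Its log2 ratio had a lowest value of 1.06, a median of 3.52 and a highest value of 3.66 on the 6 invasive arrays, and it was -0.48, 0.79 and -0.66 on PIN replicates 2, 3 and 4. Of the invasive arrays, 5 lay close together between 3.18 and 3.66, and replicate 3 lay far below them, though still 0.27 above the highest PIN array. The means were 3.09 ± 1.01 in invasive cancer stroma (SD, n = 6) and -0.12 ± 0.79 in PIN stroma (SD, n = 3), a difference of 3.21 (95% interval 2.04 to 4.37, adjusted p = 0.0228, limma). Without PIN replicate 2 the adjusted p was 0.128, the highest among the 9 fits that left out an array.

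Ms4a6d encodes a membrane protein of the MS4A family with several transmembrane segments. No other gene of that family on the list searched was among the genes tested. The mean of its 2 clones had a lowest value of 1.76, a median of 3.25 and a highest value of 3.59 on the invasive arrays, and was -0.58, 0.30 and -0.23 on PIN replicates 2, 3 and 4. It left the widest gap of the 6 genes between the groups, 1.46 from invasive replicate 3 to PIN replicate 3. The difference was 3.17 (SE 0.38, 95% interval 2.36 to 3.99), or 9.01-fold, with an adjusted p of 0.00409 from limma. Fitted as separate clones, the differences were 3.19 (SE 0.43) and 3.16 (SE 0.35), so the clones differed by less than their errors.

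Fcgr3 encodes the low-affinity activating Fc receptor for IgG, which signals through the ITAM of the Fc receptor gamma chain, and its clone could likewise capture RNA of the related Fcgr2b, which was not tested. Its log2 ratio had a lowest value of 1.62, a median of 2.73 and a highest value of 3.15 on the invasive arrays, and was -0.46, 0.54 and -0.52 on PIN replicates 2, 3 and 4. The groups were 1.08 apart at their nearest, again between invasive replicate 3 and PIN replicate 3. The difference was 2.77 (SE 0.33, 95% interval 2.04 to 3.49), or 6.80-fold (adjusted p = 0.00409, limma). Ms4a6d and Fcgr3 had the smallest p of the 6, at ranks 3 and 4 among all genes tested, and left-out arrays moved their adjusted p to 0.0278 at most.

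Stab1 encodes stabilin-1, a scavenger receptor of tissue macrophages and of sinusoidal endothelium that takes up modified proteins. Its log2 ratio had a lowest value of 1.54, a median of 2.49 and a highest value of 3.29 on the invasive arrays, and was 0.44, 0.89 and -0.56 on PIN replicates 2, 3 and 4. PIN replicates 2 and 3 were both above the pool, and PIN replicate 4 below it. The difference was 2.19 (SE 0.37, 95% interval 1.38 to 3.00), or 4.57-fold (adjusted p = 0.0230, limma). The methods' t-test gave an adjusted p of 0.256 for Stab1, the only one of the 6 that it did not pass.

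Dab2 encodes a clathrin adaptor for endocytosis, expressed by macrophages and also by other cells, among them fibroblasts, endothelium and some epithelia. The mean of its 3 clones had a lowest value of 0.54, a median of 2.17 and a highest value of 3.26 on the invasive arrays, and was -0.47, 0.22 and -0.95 on PIN replicates 2, 3 and 4. Its invasive values were spread most widely of the 6 genes, over 2.72, and replicates 1 and 3 were the lowest. The difference was 2.37 (SE 0.50, 95% interval 1.28 to 3.47), or 5.18-fold (adjusted p = 0.0506, limma). Without PIN replicate 2 the adjusted p was 0.197, which is above 0.15.

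Laptm5 encodes a lysosomal membrane protein of hematopoietic cells that takes part in the breakdown of antigen receptors. Its log2 ratio had a lowest value of 0.42, a median of 1.50 and a highest value of 2.43 on the invasive arrays, and was -0.04, 0.22 and -0.34 on PIN replicates 2, 3 and 4. It was the smallest change of the 6 and had the narrowest gap, 0.19, and its highest array was invasive replicate 1. The difference was 1.48 (SE 0.35, 95% interval 0.71 to 2.25), or 2.79-fold (adjusted p = 0.0640, limma). The adjusted p was 0.247, 0.176 and 0.153 without PIN replicates 2, 3 and 4 in turn, and 0.0265 without both invasive replicate 3 and PIN replicate 4, an alternative chosen after seeing the data.

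**Figure D1:**
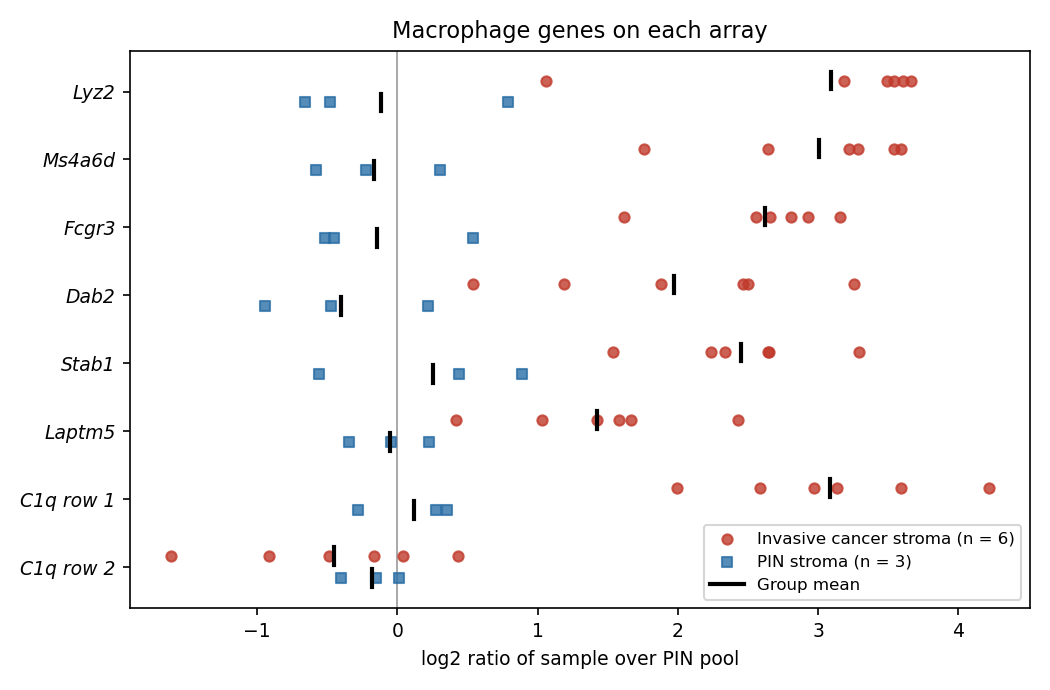
Log2 ratio of sample over PIN pool for the 6 genes with a row of their own and the 2 C1q rows, with 1 point per array (circles, invasive cancer stroma, n = 6; squares, PIN stroma, n = 3) and a black line at each group mean. In each of the 6 genes the lowest invasive point is replicate 3, and it lies above the highest PIN point, by 0.19 for Laptm5 to 1.46 for Ms4a6d.

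Fitted clone by clone over 17207 clones, all 9 rows with values passed as higher at an adjusted p under 0.15 (limma), which 1.52% of all clones did, and 5 passed at an adjusted p under 0.05, against 0.343% of all clones. The 5 were the clones of Lyz2, Ms4a6d (both), Fcgr3 and Stab1. The Dab2 clones gave 7.12-fold, 6.14-fold and 3.17-fold, with log2 differences of 2.83 (SE 0.57), 2.62 (SE 0.59) and 1.66 (SE 0.41). Their 95% intervals, 1.59 to 4.07, 1.34 to 3.90 and 0.78 to 2.55, overlapped, and the clones were not tested against each other. In all 9 the invasive arrays lay above the PIN arrays without overlap, against 3.73% of all clones. The methods' t-test passed 2 of the 9. Without PIN replicate 2, 3 of the 9 passed, and without PIN replicate 4, 5 passed.

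C1q, the recognition subunit of the classical complement pathway, is built from chains encoded by C1qa, C1qb and C1qc, and macrophages are a main source of it. The first C1q row had a lowest value of 2.00, a median of 3.05 and a highest value of 4.22 on the invasive arrays, and was 0.28, 0.36 and -0.28 on PIN replicates 2, 3 and 4. Its groups did not overlap, and the difference was 2.97 (SE 0.40, 95% interval 2.09 to 3.84), or 7.81-fold (adjusted p = 0.00874, limma over all clones). The second C1q row had a lowest value of -1.61, a median of -0.33 and a highest value of 0.43 on the invasive arrays, and was 0.01, -0.15 and -0.40 on PIN replicates 2, 3 and 4. Its groups overlapped, and its difference of -0.27 (95% interval -1.09 to 0.55, adjusted p = 0.879, limma) left the 95% intervals of the 2 rows without overlap. Why rows under the same annotation differ was not tested. Averaged, the C1q rows gave a difference of 1.35, a value that stands for neither row.

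**Figure D2:**
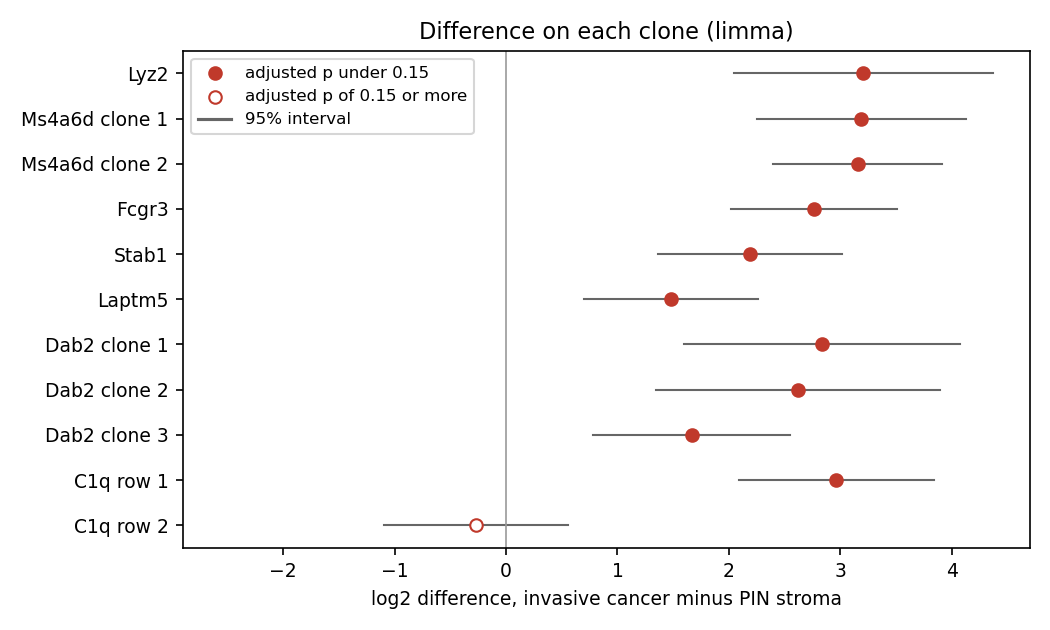
Difference in log2 ratio, invasive cancer stroma minus PIN stroma, for each clone of the macrophage genes and the 2 C1q rows, with the 95% interval from limma (n = 6 and 3 arrays). The clones of the 6 genes and the first C1q row lie to the right of 0, and the interval of the second C1q row, -1.09 to 0.55, spans 0.

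Invasive replicate 3 was the lowest invasive array in 6 of 6 genes, and PIN replicate 3 the highest PIN array in 6 of 6. The mean log2 ratio over the 6 genes was 2.61, 2.92, 1.15, 2.50, 2.87 and 2.51 on invasive replicates 1 to 6, and -0.26, 0.49 and -0.54 on PIN replicates 2, 3 and 4. Replicate 2 was above the invasive mean of every one of the 6 genes, and replicate 3 of none, while the highest array varied, with replicates 2 and 5 highest in 2 genes each and replicates 1 and 6 in 1 each. Any pair of invasive arrays had an r of 0.256 to 0.769 over all clones, and PIN replicate 4 was set apart by an r of 0.176 to 0.189 with the other PIN arrays, which had 0.672 with each other. Leaving out invasive replicate 3 and PIN replicate 4 together, 6 of 6 genes and 9 of 9 clones passed.

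To ask how far the genes moved together within invasive cancer stroma, each of their 15 pairs was correlated over the 6 invasive arrays, in a family of 32 correlations that also held the C1q rows and the clones of each gene. All 15 pairs had a positive r, with a median of 0.69 and a range of 0.24 to 0.91. Without invasive replicate 3 the median was 0.15, the range was -0.81 to 0.93, and 8 of the 15 were positive. Among the 15 pairs, 2 passed at an adjusted p under 0.05. Ms4a6d and Stab1 had r = 0.91 (exact permutation p = 0.00278, adjusted p = 0.0296) and rho = 0.94 (exact permutation p = 0.0167, adjusted p = 0.107), and r was 0.79 without the 2 arrays farthest from the median of Ms4a6d. Lyz2 and Dab2 had r = 0.81 (exact permutation p = 0.00139, adjusted p = 0.0296) and rho = 1 (exact permutation p = 0.00278, adjusted p = 0.0889), and r was 0.95 without the 2 farthest arrays.

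Other pairs turned on invasive replicate 3. Lyz2 and Fcgr3 had r = 0.89 (exact permutation p = 0.118) with rho = 0.26, and r was -0.28 without that array. Ms4a6d and Fcgr3 had r = 0.65 with it and -0.81 without it, and Lyz2 and Laptm5 0.64 with it and -0.74 without it. The first C1q row went most closely with Stab1 (r = 0.95, exact permutation p = 0.0167, adjusted p = 0.0722) and Ms4a6d (r = 0.91, exact permutation p = 0.00833, adjusted p = 0.0667). Among clones of the same gene, the Ms4a6d clones had r = 0.90 (0.11 without the 2 farthest arrays), the 3 pairs of Dab2 clones 0.85 to 0.98. The 2 C1q rows, which may detect different chains, had r = -0.01.

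**Figure D3:**
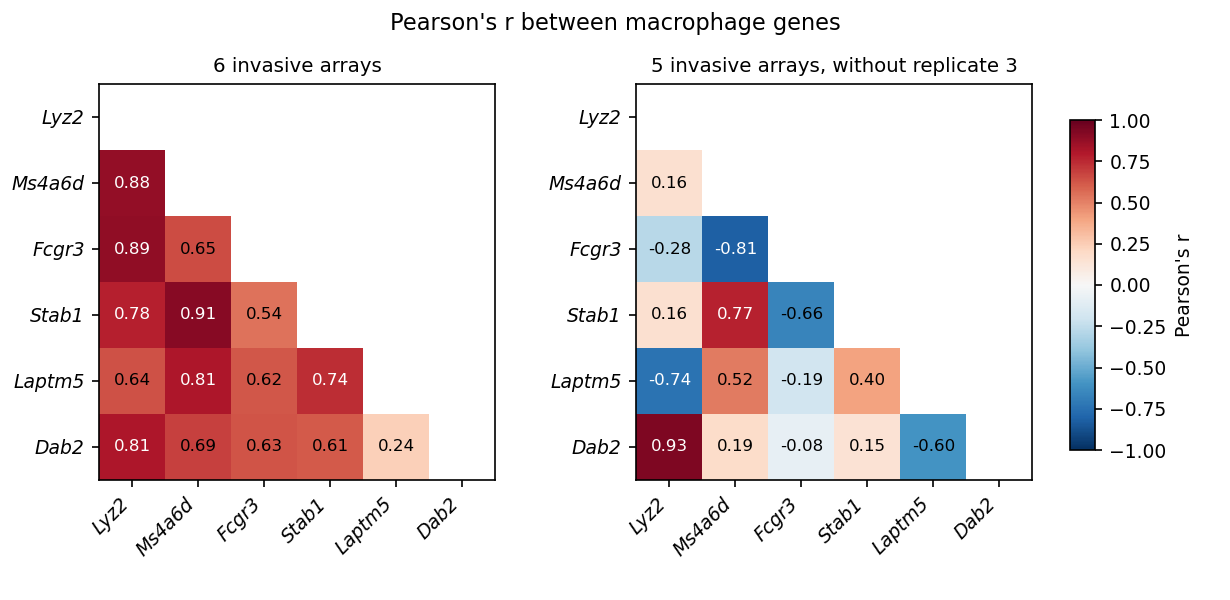
Pearson r of each pair of macrophage genes, as a number and a color from -1 to 1, over the 6 invasive arrays and again over the 5 arrays without invasive replicate 3. With all arrays every pair is above 0 (median 0.69), and without that array the pairs lie between -0.81 and 0.93 (median 0.15).

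The genes whose pattern over the 6 invasive arrays was most like the mean of the 6 macrophage genes, among 1649 other genes with an SD of at least 0.5, were Hsd17b4, a peroxisomal enzyme of fatty acid oxidation (r = 0.997), followed by Acss1, Pon2, Galnt1, Gja1, Lgmn, Itpr2, Tmbim1, Tlr4 and C1ra (r of 0.961 to 0.986). Since the list was picked as the highest of many, no test is given, and 85 genes, or 5.15%, had an r above 0.9. Without invasive replicate 3 the count was 35, and the r of the 10 was 0.46 to 0.98. Of the 10, Lgmn, a lysosomal cysteine protease, was higher in invasive cancer stroma by 2.49 on the log2 scale (adjusted p = 0.0431, limma) and Gja1, the gap junction protein connexin 43, by 1.32 (adjusted p = 0.0818, limma). Tlr4, the receptor for bacterial lipopolysaccharide, had a difference of 1.40 (adjusted p = 0.151, limma), and Hsd17b4 one of 0.59 (adjusted p = 0.354, limma).

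Around these genes, 37 others of macrophage pathways were measured, of which 9 were higher in invasive cancer stroma and 0 lower at an adjusted p under 0.15 (limma), with a median difference of 0.65, against 3.75% higher and 1.89% lower among all genes. Leaving out PIN replicate 2 gave 0 in place of the 9, PIN replicate 3 gave 2 and PIN replicate 4 gave 4, whereas invasive replicate 4 gave 5 and invasive replicate 3 gave 19. Among 6 genes of Fc receptor and ITAM signaling, 2 were higher. Fcer1g, the Fc receptor gamma chain with which Fcgr3 pairs, had a lowest value of 0.61, a median of 2.10 and a highest value of 2.84 on the invasive arrays, against -0.19 to 0.38 on the PIN arrays (difference 1.97, SE 0.39, adjusted p = 0.0431, limma). Inpp5d, the inositol phosphatase SHIP1 that restrains Fc receptor signaling, was higher by 1.30 (SE 0.35, adjusted p = 0.101, limma). Fcgr1, the high-affinity Fc receptor for IgG and a paralog of Fcgr3, had a difference of 0.09 (95% interval -0.53 to 0.71, adjusted p = 0.926, limma).

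Of 6 scavenger and engulfment receptors, 2 were higher, and of 7 genes of the phagocyte oxidase and lysosome, 2 were. Cd14, the coreceptor for lipopolysaccharide, was higher by 2.18 (SE 0.50, adjusted p = 0.0602, limma), and Cd36, a receptor for oxidized lipids that endothelium also carries, by 2.09 (SE 0.54, adjusted p = 0.0906, limma). The lysosomal proteases Ctsd and Ctsb were higher by 1.78 (SE 0.39, adjusted p = 0.0565, limma) and 1.62 (SE 0.31, adjusted p = 0.0366, limma). Many cell types express both. Cybb, the catalytic subunit of the phagocyte oxidase, had a difference of 1.69 (adjusted p = 0.187, limma). Of 4 genes common to leukocytes, Lcp1, an actin bundler, and Coro1a, an actin regulator, were higher by 1.82 (adjusted p = 0.120, limma) and 1.04 (adjusted p = 0.144, limma).

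Of 2 complement genes apart from the C1q rows, Cd93, a receptor of endothelium and myeloid cells once taken for a C1q receptor, was higher by 1.01 (SE 0.28, adjusted p = 0.105, limma). None of 7 genes of the CSF1 axis and myeloid transcription factors passed. Nr1h3, the oxysterol receptor LXR alpha, had a difference of 0.73 (adjusted p = 0.301, limma), and Csf1, the growth factor of macrophages, one of 0.68 (95% interval -0.25 to 1.60, adjusted p = 0.505, limma). None of 5 genes of MHC class II presentation passed either, and their median difference was 0.00. Ifi30, a lysosomal thiol reductase for antigens, had a difference of 0.75 (adjusted p = 0.159, limma) and H2-Eb1, a class II beta chain, one of -0.29 (95% interval -0.82 to 0.23, adjusted p = 0.639, limma).

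Markers of other cells were read beside the macrophage genes, as the mean log2 ratio over each list, and counts of genes that passed are set against 3.75% higher and 1.89% lower among all genes, a share from which 0 or 1 gene of so short a list hardly differs. Of 5 neutrophil markers 0 passed (range -0.17 to 1.33 on the invasive arrays, -0.09 to 0.34 on the PIN arrays), with S100a9, a calcium-binding protein of neutrophils and monocytes, at a difference of 1.44 (adjusted p = 0.197, limma). Of 2 T cell markers 0 passed (-0.41 to 0.89 on the invasive arrays, -0.06 to 0.23 on the PIN arrays), and 0 of 2 mast cell markers (-0.41 to -0.11 on the invasive arrays, -0.36 to 0.13 on the PIN arrays). No B cell marker of the list was among the genes tested. Fibroblast markers were higher in 4 of 9 genes (Fn1, Col1a2, Col3a1 and Pdgfrb; 0.12 to 1.36 on the invasive arrays, -0.43 to 0.17 on the PIN arrays) and endothelial markers in 2 of 6 (Emcn and Esam; 0.34 to 1.81 on the invasive arrays, 0.02 to 0.08 on the PIN arrays). Smooth muscle markers were lower in 3 of 5 genes (Myl9, Myh11 and Mylk; -2.91 to -0.32 on the invasive arrays, -0.55 to 0.33 on the PIN arrays). Epithelial markers were higher in 1 of 7 (Krt7; -1.18 to 0.14 on the invasive arrays, -1.28 to 0.77 on the PIN arrays) and neuroendocrine markers in 1 of 5 (Foxa2; 0.31 to 2.50 on the invasive arrays, -0.20 to 0.36 on the PIN arrays).

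Invasive replicate 3, the array lowest for all 6 macrophage genes, was also the lowest invasive array for the fibroblast list (0.12) and the endothelial list (0.34). It was lowest as well for each wider macrophage list measured, among them the CSF1 axis (0.09) and MHC class II (-0.14). For the epithelial list (0.14) and the smooth muscle list (-0.32) it was the highest. On the neuroendocrine list it stood at 2.22, below invasive replicates 4 (2.50) and 2 (2.34). Of the genes of that list, Foxa2, a transcription factor of the neuroendocrine tumors, was highest on replicate 3 (4.45), as was Uchl1 (2.10). Scg3 (2.12) and Snap25 (2.96) were neither highest nor lowest there. Scg2, a granule protein of neuroendocrine cells, was lowest there (-0.51), with a group difference of 0.23 (adjusted p = 0.741, limma). PIN replicate 4, the lowest PIN array for 5 of the 6 macrophage genes, had 0.77 on the epithelial list, against -1.12 and -1.28 on PIN replicates 2 and 3, and -0.43 on the fibroblast list, against 0.12 and 0.17. The part of these cells in the macrophage values was not tested.

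**Figure D4:**
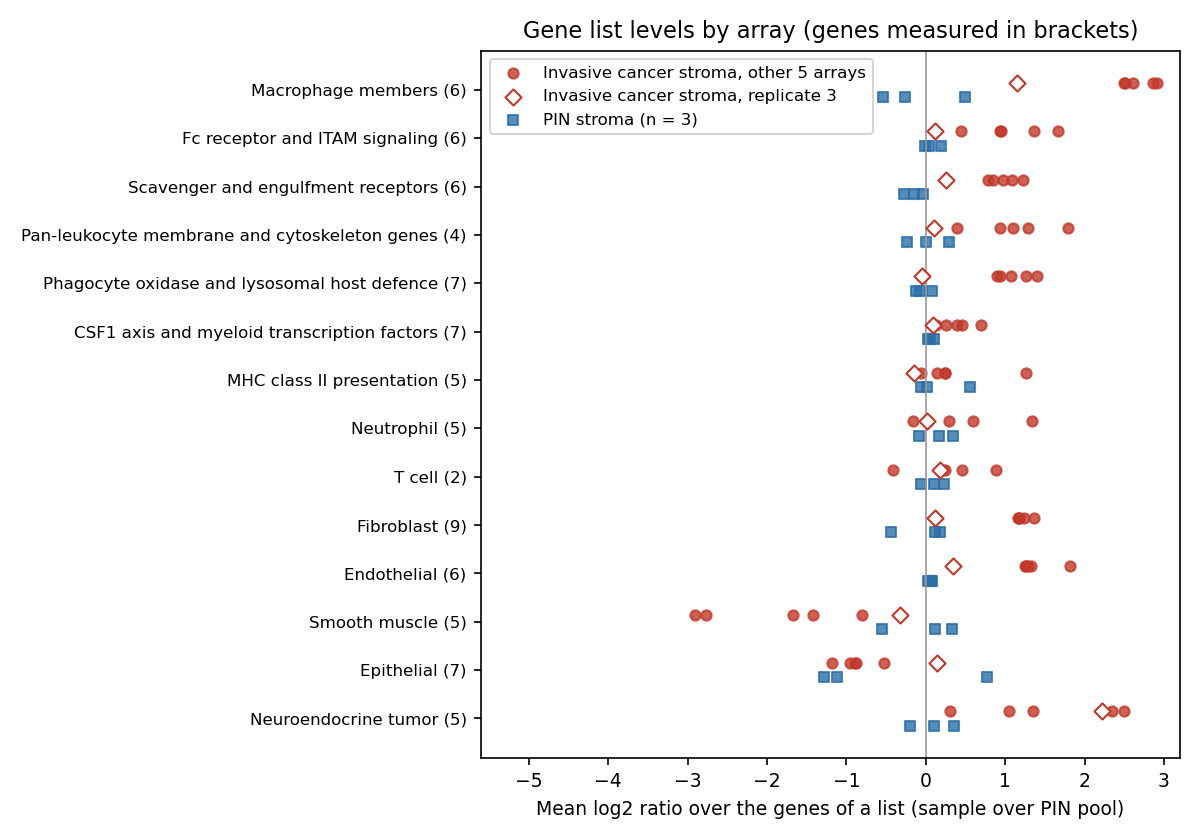
Mean log2 ratio of sample over PIN pool over the genes of each list, with 1 point per array (invasive cancer stroma above, its replicate 3 as an open diamond; PIN stroma below as squares). The 6 macrophage genes reach 1.15 to 2.92 in invasive cancer stroma and -0.54 to 0.49 in PIN stroma. Replicate 3 is the lowest invasive array for them, for the wider macrophage lists shown and for the fibroblast and endothelial lists.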

How the data were processed

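RNA of laser-microdissected stroma was amplified and measured on 9 arrays of spotted cDNA. The deposited log2 ratios (sample over PIN pool) had been normalized by the authors with lowess within print-tip groups, and no background was subtracted. Intensities of spots were not used here; dim clones therefore stayed in, and signal over background is not given. Each array held 17189 to 17206 values.

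For a gene, its clones were averaged on each array. Of the rows, 12563 had 1 symbol, 412 several and 4689 none; rows with several symbols entered only the fit of clones. A gene or clone needed values on 4 or more invasive arrays and 2 or more PIN arrays. The test was limma 3.58.1 (R 4.3.3; moderated by eBayes after lmFit), two-sided, for invasive minus PIN stroma, with p adjusted by Benjamini-Hochberg over all genes or all clones; 0.15 was the limit for a pass. The fit was tested on simulated data. Correlations used exact two-sided permutation tests in numpy 2.4.6, adjusted by Benjamini-Hochberg over 32 in scipy 1.17.1. Each array was 1 mouse.

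The genes and lists were chosen with earlier results of these data known. Named besides the 10 genes are up to 4 passing genes of each list by smallest p (2 where none passed), paralogs and the 10 genes of most similar pattern. Cybb and the neuroendocrine markers other than Foxa2 were added after their values were seen. Alternatives were Welch's t-test (unequal variances), array weights, robust empirical Bayes, scaling or quantile normalization between arrays, and the invasive arrays against 0. Others were values on all 9 arrays, other ways to combine clones, an adjusted p under 0.05, a replicate block and leaving out arrays. Promoter windows were read from RefSeq, GRCm38.p6. Figures were drawn with matplotlib 3.10.9.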

Additional observations from a re-analysis of the deposited data

Results flagged for a closer look

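Lyz2 had a log2 ratio of 1.06 on invasive replicate 3, and the next invasive value was 3.18. The gap was 0.815 of the range of the 6 invasive arrays, above the limit of 0.625 for 6 samples in Dixon's test. Kit, a receptor of mast cells and their precursors, was highest on the same array, at 0.48, with a gap of 0.673 of the range. Of 43 groups of values looked at in this way, 2 stood out, and chance gives about 1 in 20.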

How the results depend on the processing

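All 6 macrophage genes passed under array weights, robust empirical Bayes, scaling or quantile normalization between arrays, the test against 0, values on all 9 arrays and other ways to combine clones. No difference of these genes or clones changed sign under any alternative run. Counts out of 6 genes that passed were 5 with Welch's t-test and 4 at an adjusted p under 0.05. They were 4 to 6 when an array was left out. Of 9 clones, 2 passed with Welch's t-test, 5 at an adjusted p under 0.05 and 8 after scaling. When an array was left out, 3 to 9 passed. The count of 9 higher genes in the wider lists became 0 to 19 when an array was left out, and 18 without both invasive replicate 3 and PIN replicate 4. The median r of the 15 pairs was 0.15 to 0.85 when an array was left out. With the replicate block, 2 of 6 genes (Ms4a6d and Fcgr3) and 1 of 9 clones passed. Samples of the same number came from different mice, and their deviations had correlations of -0.14, -0.05 and -0.04. The labels do not say whether arrays of the same number shared a processing step, and these correlations cannot decide it. The causes of these changes were not tested. With 3 PIN arrays and no spot intensities, the spread of PIN stroma and the floor of each clone are poorly known.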
